A study of Drosophila melanogaster and Drosophila simulans and Drosophila yakuba with 24 samples.

Results

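The 42 genes described here encode the machinery that copies fly DNA and drives cells through the cell cycle, from origin licensing factors to mitotic kinases. They were taken by function, not by measured level, from a gene table of 13898 FlyBase genes, and all 42 were found there, 34 by the symbol in the table and 8 by the FlyBase identifier of their current symbol. Their transcripts were measured in wild-type Canton S Drosophila melanogaster females, mated and 10 days old, by total RNA-seq after removal of ribosomal RNA. The groups were ovary, eviscerated abdomen (the abdominal body wall with its fat body, dissected to remove the organs inside), thorax and head, with 3 libraries each and each library made from a pool of flies. Transcripts that mark ovarian cells were present in the abdomens, as given below. No library carried a mutation, transgene or drug, abdomens were dissected in cold buffer, and heads and thoraces were cut from frozen flies. The question was how far a set of genes used by dividing and endocycling ovary cells was transcribed in adult body parts in which most cells no longer divide.

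Before DNA is copied, the origin recognition complex together with Cdc6 and Cdt1 (dup in flies) loads the ring-shaped MCM helicase, and geminin blocks reloading until the next cycle. Cyclin-dependent kinases then fire the origins and later start mitosis, Cdc25 phosphatases switch these kinases on, and the anaphase-promoting complex ends mitosis by destroying cyclins. In the ovary, germline stem cells and cysts and young follicle cells divide, whereas nurse cells and older follicle cells endocycle, repeating S phase without mitosis, and the egg is loaded with cell cycle mRNAs for the embryo. Because body parts were measured in bulk, fewer cells of a type and less RNA per cell cannot be told apart in any of the values below.

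Levels are given as CPM, the usual scaling of a gene's counts to a fixed number of counts per library, adjusted with library factors that were computed over all genes, and a gene was called when the adjusted p of edgeR's quasi-likelihood test was under 0.05. The 12 libraries held between 7884586 and 32498809 counts on genes. For single members these gave 488 to 82331 counts in ovary libraries, 40 to 14644 in abdomens, 1 to 11435 in thoraces and 0 to 22521 in heads, with 1 listed zero (plu in head replicate 2), so the low thorax and head levels rest on few reads. All 42 members passed the filter on low counts, but Cdk1, aurB, png and plu did so only through ovary and abdomen. The labelled tissues carried their defining transcripts, but some of these were also high elsewhere. A list of 14 follicle cell and eggshell genes summed to 19608 to 21234 CPM in ovary, 9 muscle genes to 18874 to 21501 in thorax and 7 neuron genes to 5336 to 6386 in head. The follicle cell and eggshell list also summed to 8549 to 9355 CPM in abdomens, and 7 gut genes summed to 24806 to 38028 CPM in thoraces. For 10 fat body and oenocyte genes the sum was 71141 to 92322 in abdomen, but thoraces (100538 to 132981) and heads (101550 to 131499) lay higher. Abdomen replicate 1 stood apart from its 2 replicates, and results that rest on it are also given without it.

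Ovary held the most of this machinery. Its mean CPM was the highest of the 4 tissues for 39 of the 42 genes, the exceptions being Cdk2, highest in abdomen, and E2f1 and CycG, highest in head. By CPM, abdomen came second for 38. By RPKM ovary was highest for all 42. On that scale, with a pseudocount of 0.1, the median log2 fold change of all genes for ovary was 1.95 against head, 1.14 against thorax and 1.74 against abdomen. Summed over the 42 genes, the ovary libraries held 8955, 8296 and 8810 CPM and the abdomens 3217, 5343 and 5195, against 1630, 1707 and 1602 in thoraces and 1917, 1903 and 1974 in heads, with CycG alone giving 1078 ± 34.3 CPM of the thorax sum and 1309 ± 81.9 of the head sum (SD, n = 3). Against head, 40 members were higher in ovary, 1 was lower (CycG) and E2f1 was not called, while 39.4% of the 11188 genes tested were called higher and 46.4% lower. Against thorax the count was again 40 higher and 1 lower, with 40.3% and 43.7% of all genes called in those directions. Both counts of 40 include Cdk1, aurB, png and plu, which passed the filter on low counts only through ovary and abdomen. Against eviscerated abdomen, 33 were higher, 1 was lower (Cdk2) and 8 were not called, against 32.6% and 35.9% of all genes. The count higher was 37 with only the 2 tissues fitted or with scaling by library size alone. The median log2 fold change of the members was 4.77 for ovary against head, 4.96 against thorax and 1.09 against abdomen, beside medians over all genes of -0.25, -0.11 and -0.01. These comparisons share the ovary libraries, so they are not independent of each other.

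**Figure D1:**
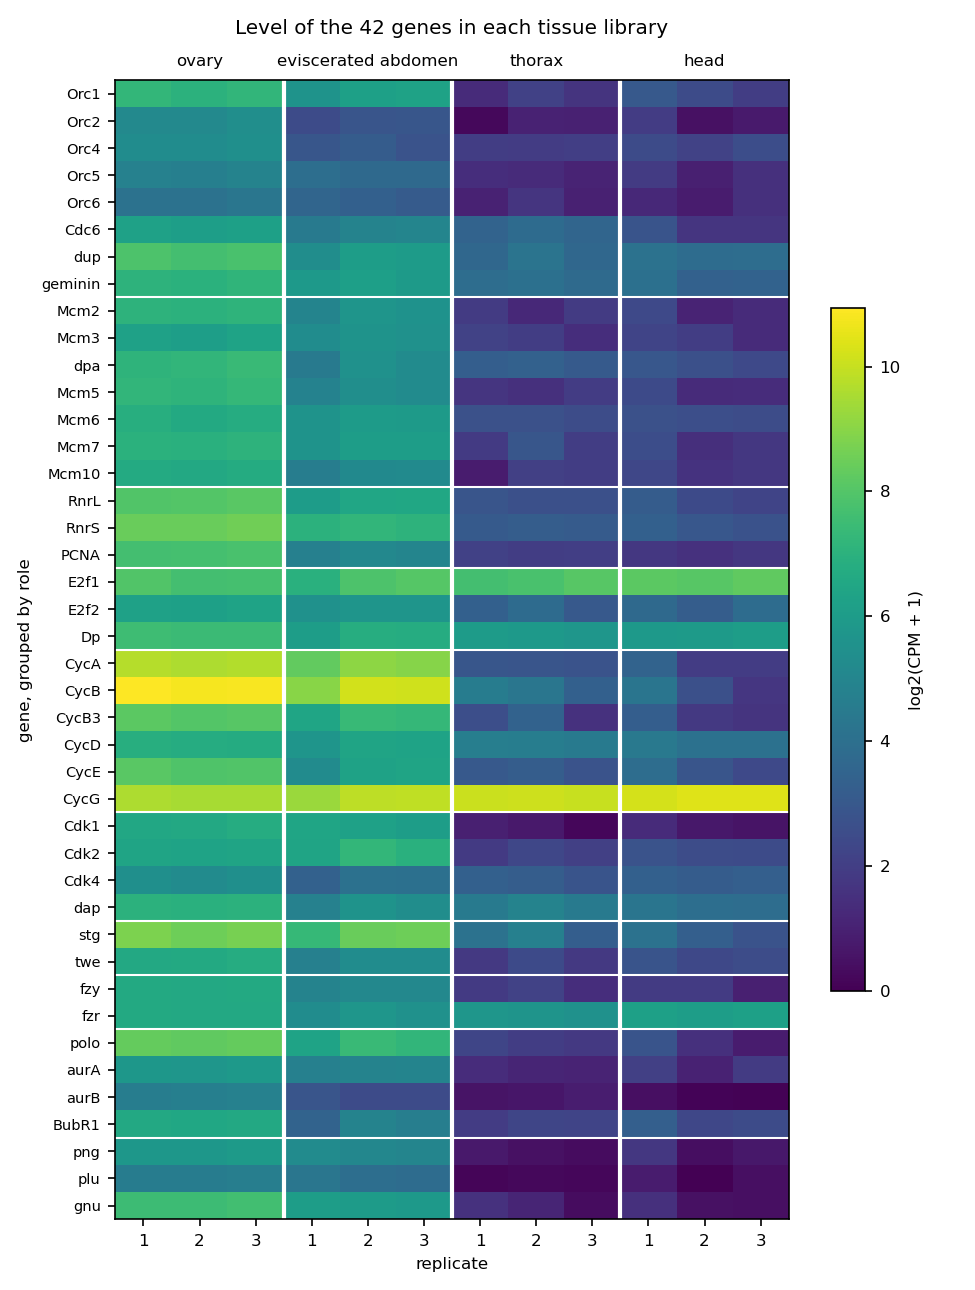
Level of each of the 42 genes (rows, grouped by role and separated by white lines) in each of the 12 libraries (columns, replicates 1 to 3 of ovary, eviscerated abdomen, thorax and head), as colour on a log2(CPM + 1) scale. Ovary columns are brightest in nearly every row, abdomen columns are intermediate, and E2f1 and CycG are bright in all 12 libraries.

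The 8 licensing genes were all higher in ovary than in each of the other tissues. Orc1, the largest subunit of the origin recognition complex, had 149.7, 130.3 and 145 CPM in ovaries, 48.5, 73.4 and 77.8 in abdomens, 1.53, 3.30 and 2.12 in thoraces and 7.31, 4.62 and 2.92 in heads. Ovaries, abdomens and the other 2 tissues formed ranges that did not overlap, while thorax and head overlapped. It showed the largest difference of the group from head, with a log2 fold change of 4.84 (SE 0.33, edgeR adjusted p = 1.0e-08), of 5.92 from thorax (SE 0.36, adjusted p = 4.3e-09) and of 1.09 from abdomen (SE 0.27, adjusted p = 0.0030). Orc4, another subunit, had the smallest difference from head in the group. Its values were 39.2, 39.1 and 43.1 CPM in ovaries, 6.65, 8.07 and 5.91 in abdomens, 2.96, 2.82 and 3.11 in thoraces and 4.66, 3.51 and 5.05 in heads. Ovary exceeded head by 3.19 (SE 0.17, edgeR adjusted p = 1.0e-09) and abdomen by 2.55 (SE 0.17, adjusted p = 2.3e-08) on the log2 scale.

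The other 6 licensing genes ranged from 3.51 to 4.74 on the log2 scale for ovary against head, and from 0.88 (Orc6) to 2.63 (Orc2) for ovary against abdomen. Orc2, a core subunit, averaged 36.6 ± 3.79 CPM in ovary and 5.92 ± 1.03 in abdomen (SD, n = 3 each), the lowest abdomen mean of the group. Orc5 and Orc6, further subunits, averaged 27.1 ± 1.67 and 17.1 ± 1.22 CPM in ovary, against 13.0 ± 1.14 and 9.29 ± 1.41 in abdomen. Among the loading factors, Cdc6 averaged 72.9 ± 4.13 CPM in ovary, 26.9 ± 4.36 in abdomen, 11.3 ± 1.54 in thorax and 3.55 ± 2.27 in head. In the same order, dup averaged 218 ± 15.3, 56.9 ± 14.9, 13.7 ± 3.38 and 14.6 ± 1.35 CPM, and geminin, the inhibitor of dup, 133 ± 6.20, 64.2 ± 6.87, 14.2 ± 1.47 and 11.6 ± 3.29.

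The 6 subunits of the MCM helicase measured here (Mcm2, Mcm3, dpa, which is fly Mcm4, Mcm5, Mcm6 and Mcm7) were higher in ovary against all 3 tissues, as was Mcm10, which helps to activate the helicase. Mcm5 showed the largest difference from head of these 7 genes. It had 145, 136 and 156 CPM in ovaries, 27.6, 41.5 and 37.9 in abdomens, 2.20, 1.85 and 2.82 in thoraces and 4.54, 1.51 and 1.58 in heads. Thorax and head overlapped, and ovary lay 5.82 above head (SE 0.35, edgeR adjusted p = 3.7e-09), 6.01 above thorax (SE 0.37, adjusted p = 4.8e-09) and 2.03 above abdomen (SE 0.29, adjusted p = 3.4e-05) on the log2 scale. Mcm6 showed the smallest, with 114, 99.6 and 108 CPM in ovaries, 47.8, 64.0 and 61.3 in abdomens, 5.63, 5.54 and 4.80 in thoraces and 5.54, 5.26 and 4.74 in heads. Its ovary levels were 20.6 times those in head (edgeR adjusted p = 3.5e-11) but 1.86 times those in abdomen (adjusted p = 7.3e-05).

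Since the MCM subunits assemble into 1 ring, their levels were also compared with each other per length, on the authors' RPKM (reads per kilobase of gene model, scaled to library size). Ovary means lay between 29.6 ± 1.54 RPKM (Mcm3) and 64.7 ± 3.43 (Mcm5), and abdomen means between 3.46 ± 1.23 (dpa) and 6.88 ± 1.46 (Mcm7). Thorax means lay between 0.329 ± 0.121 (Mcm2) and 1.36 ± 0.281 (dpa), and head means between 0.154 ± 0.0758 (Mcm2) and 0.435 ± 0.0765 (dpa). The gene dpa had the highest mean of the 6 in thorax and head and the lowest in abdomen, but its range overlapped those of other subunits in each of these tissues, such as Mcm7 in thorax, Mcm6 in head and Mcm2, Mcm3 and Mcm5 in abdomen. By CPM its log2 fold change for ovary against abdomen was 2.11 (SE 0.24, edgeR adjusted p = 5.0e-06). Mcm3 had the smallest such change, 0.75 (SE 0.22, adjusted p = 0.0085). Mcm10 averaged 102 ± 4.75 CPM in ovary and 31.9 ± 7.14 in abdomen, with 2.31 ± 1.35 in thorax and 2.80 ± 1.02 in head.

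The enzymes that supply deoxynucleotides and the sliding clamp were among the genes with the strongest ovary bias. RnrL, the large subunit of ribonucleotide reductase, had 249, 256 and 283 CPM in ovaries, 65.6, 87.2 and 89.2 in abdomens, 6.40, 5.34 and 5.37 in thoraces and 8.19, 4.54 and 3.71 in heads. RnrS, its small subunit, had 348, 348 and 377 CPM in ovaries, 128, 144 and 134 in abdomens, 7.54, 8.45 and 7.77 in thoraces and 9.26, 6.77 and 5.72 in heads. The 2 subunits differed from head by nearly the same amount, with log2 fold changes of 5.58 for RnrL (SE 0.28, edgeR adjusted p = 4.8e-10) and 5.62 for RnrS (SE 0.19, adjusted p = 2.1e-11), and from abdomen by 1.70 (SE 0.23) and 1.40 (SE 0.16). PCNA, the clamp that holds the polymerases on DNA (mus209 in the table), had 205, 209 and 222 CPM in ovaries, 26.1, 33.2 and 30.2 in abdomens, 3.34, 3.01 and 3.11 in thoraces and 2.39, 1.91 and 2.37 in heads. Ovary exceeded head 94.3-fold (log2 6.56, SE 0.17, edgeR adjusted p = 5.1e-12) and abdomen 7.10-fold (log2 2.83, SE 0.14, adjusted p = 2.2e-09). The ovary-to-abdomen difference of PCNA was the largest of all 42 genes.

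E2F factors switch on replication genes at the start of S phase, E2f1 as the activator, E2f2 mainly as a repressor and Dp as the shared partner of both, and they were the role group with the smallest median log2 fold change for ovary against head (1.51). E2f1 had 246, 205 and 211 CPM in ovaries, 120.3, 237 and 261 in abdomens, 204, 218 and 271 in thoraces and 289, 271 and 306 in heads. The 4 tissues lay close to each other, ovary and head did not overlap, and edgeR called none of the 6 tissue comparisons. The log2 fold change of ovary was -0.38 against head (SE 0.24, 95% interval -0.85 to 0.08, edgeR adjusted p = 0.14), -0.06 against thorax (interval -0.53 to 0.40, adjusted p = 0.81) and 0.10 against abdomen (interval -0.36 to 0.57, adjusted p = 0.72). Ovary was called lower than head without abdomen replicate 1 (-0.34, adjusted p = 0.020), and abdomen lower than head without abdomen replicate 3 (-0.59, adjusted p = 0.0497). DESeq2 called both comparisons lower (-0.67 for ovary and -0.66 for abdomen). The sign for ovary against head turned with scaling by library size alone (0.13) and by RPKM (1.88), where the medians of all genes lay at 0.26 and 1.95. E2f2 had another profile, with 76.4, 73.3 and 80.5 CPM in ovaries, 44.7, 50.7 and 50.6 in abdomens, 9.07, 13.0 and 7.20 in thoraces and 12.5, 8.29 and 13.4 in heads. It was higher in ovary by 2.74 against head (SE 0.21, edgeR adjusted p = 4.2e-08), 2.96 against thorax (SE 0.22, adjusted p = 2.8e-08) and 0.66 against abdomen (SE 0.20, adjusted p = 0.0093), a call lost with upper quartile factors (0.44). Dp averaged 178 ± 7.53 CPM in ovary, 95 ± 24.0 in abdomen, 57.6 ± 4.68 in thorax and 62.5 ± 3.29 in head, and was called higher in ovary in each comparison, by between 0.91 and 1.63 on the log2 scale.

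The cyclins held both ends of the range. CycB, the B-type mitotic cyclin, had 1957, 1759 and 1818 CPM in ovaries, 506, 1159 and 1115 in abdomens, 23.3, 18.7 and 9.32 in thoraces and 18.1, 5.34 and 2.31 in heads. Ovary exceeded head 214-fold, the largest difference between ovary and head among the 42 genes (log2 7.74, SE 0.72, edgeR adjusted p = 2.9e-07), and thorax 107-fold (log2 6.74, SE 0.69, adjusted p = 7.5e-07). Every ovary value lay above every abdomen value, yet the difference from abdomen was not called (log2 0.99, SE 0.54, interval -0.06 to 2.04, adjusted p = 0.12). It was called without head replicate 1 (adjusted p = 0.031), with only the 2 tissues fitted (0.92) and by RPKM (3.06). Abdomen replicate 1 stood well below the other 2 abdomens. CycG, an atypical cyclin that in flies has roles in growth, metabolism and genome stability, ran the other way. Its values were 779.6, 717 and 734 CPM in ovaries, 625, 922 and 955 in abdomens, 1081, 1111 and 1042 in thoraces and 1216, 1342 and 1369.9 in heads, so that every ovary value lay below every thorax and head value. CycG was lower in ovary than in head (log2 -0.82, SE 0.17, edgeR adjusted p = 0.00054) and thorax (log2 -0.54, SE 0.17, adjusted p = 0.0100), but its log2(RPKM + 0.1) was higher in ovary by 1.46 and 0.78, on a scale where the median of all genes lay at 1.95 and 1.14. The thorax call was lost without thorax replicate 2 (-0.45, adjusted p = 0.056). Against abdomen CycG was not called (log2 -0.17, interval -0.50 to 0.17, adjusted p = 0.40). There it was called lower in ovary without abdomen replicate 1 (-0.33, adjusted p = 0.028), with DESeq2 (-0.28) and with upper quartile factors (-0.37). By RPKM it was called higher (1.83), where the median of all genes lay at 1.74.

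Of the other 4 cyclins, CycA and CycB3, which act in mitosis, shared the profile of CycB. CycA averaged 812 ± 32.2 CPM in ovary, 449 ± 121 in abdomen, 6.28 ± 0.330 in thorax and 5.31 ± 4.29 in head, and CycB3 274 ± 16.2, 135 ± 43.7, 5.65 ± 3.88 and 4.45 ± 3.73 CPM in the same order. For neither was ovary called against abdomen (edgeR adjusted p = 0.053 and 0.065). However, CycA was called higher in ovary when head replicate 1, 2 or 3, abdomen replicate 2 or ovary replicate 2 was left out (adjusted p from 0.0016 to 0.045), and CycB3 without head replicate 1 or thorax replicate 3 (adjusted p of 0.022 and 0.042). Both were also called with only the 2 tissues fitted (0.78 and 0.95), with scaling by library size alone (1.14 and 1.31) and by RPKM (2.86 and 3.04), and CycA with no filter (0.89). CycE, the partner of Cdk2 that starts S phase, averaged 258 ± 22.8 CPM in ovary, against 65.8 ± 24.0 in abdomen, 7.21 ± 1.26 in thorax and 8.29 ± 5.26 in head, and was called in all 3 comparisons with ovary. CycD, the growth-linked partner of Cdk4, was the flattest of the 4, with 110.1 ± 4.98 CPM in ovary, 71.3 ± 17.9 in abdomen, 23.5 ± 1.55 in thorax and 17.3 ± 2.51 in head.

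**Figure D2:**
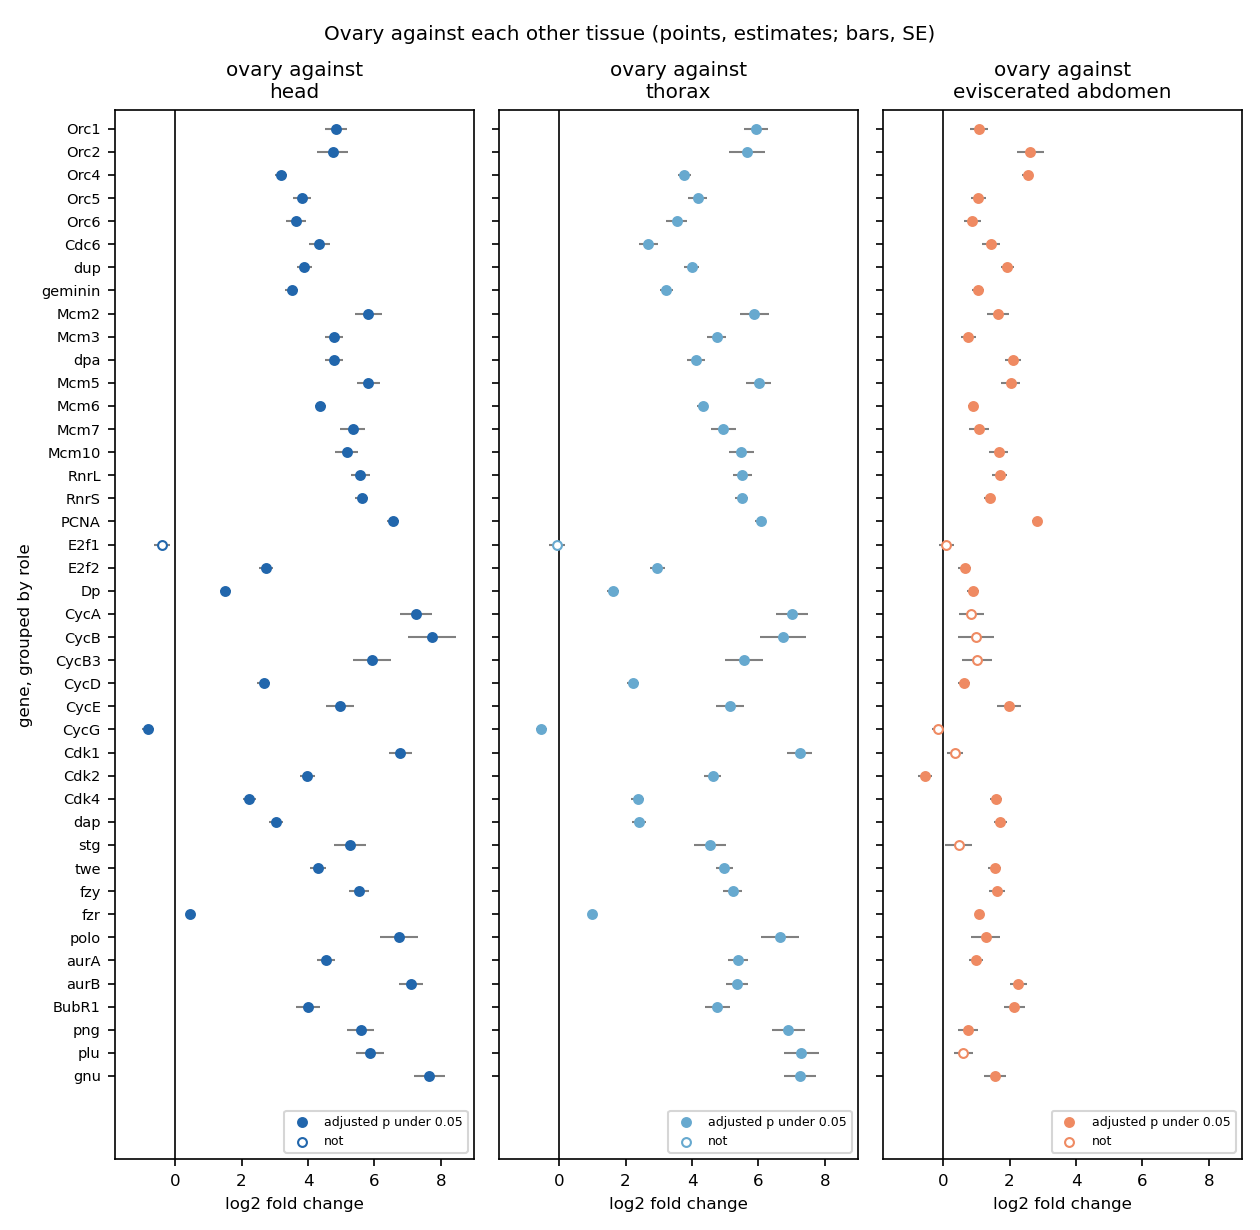
Log2 fold change of ovary against head, thorax and eviscerated abdomen (x axes) for each of the 42 genes (y axis, grouped by role); points are edgeR estimates, bars are SE, and filled points have an adjusted p under 0.05. Against head and thorax nearly all points lie above 1 and reach 7.74 (CycB, head), whereas against abdomen they lie between -0.54 (Cdk2) and 2.83 (PCNA) and 8 are open.

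The kinases that the cyclins activate, with their inhibitor, ranged from -0.54 to 1.72 on the log2 scale for ovary against abdomen. Cdk1, the mitotic kinase, had 92.0, 95.5 and 107 CPM in ovaries, 86.0, 75.5 and 66.4 in abdomens, 0.955, 0.680 and 0.141 in thoraces and 1.51, 0.637 and 0.487 in heads. Abdomen lay just below ovary, and thorax and head held few reads, as Cdk1 passed the filter on low counts only through ovary and abdomen. Ovary exceeded head by 6.78 (SE 0.34, edgeR adjusted p = 5.7e-10) and thorax by 7.25 (SE 0.37, adjusted p = 8.6e-10) on the log2 scale, but the difference from abdomen was 0.37 (SE 0.24, interval -0.10 to 0.84, adjusted p = 0.18). That difference was called with scaling by library size alone (0.67) and by RPKM (2.34), where the medians of all genes lay at 0.26 and 1.74. Cdk2, the S-phase kinase, was the only member with its highest mean in abdomen. It had 81.5, 80.2 and 83.2 CPM in ovaries, 81.9, 152 and 123 in abdomens, 2.58, 4.08 and 3.25 in thoraces and 6.05, 4.78 and 4.62 in heads. Abdomen replicate 1 lay within the ovary range and the other 2 abdomens above it. Ovary was called lower than abdomen (log2 -0.54, SE 0.20, edgeR adjusted p = 0.030), whereas log2(RPKM + 0.1) was higher in ovary by 1.47, on a scale where the median of all genes lay at 1.74. The call by counts was lost when ovary replicate 1, 2 or 3 or abdomen replicate 2 or 3 was left out (estimates from -0.52 to -0.31, adjusted p from 0.064 to 0.23). Against head and thorax, Cdk2 was higher in ovary by 3.98 (SE 0.24, adjusted p = 2.9e-09) and 4.62 (SE 0.26, adjusted p = 1.6e-09).

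Cdk4, the partner of CycD, and the inhibitor dap, a p21/p27-type protein that binds CycE and Cdk2, had a smaller ovary bias than Cdk1 and Cdk2 against head and thorax but a larger one against abdomen. Cdk4 had 43.2, 38.1 and 41.99 CPM in ovaries, 9.65, 15.8 and 15.6 in abdomens, 9.26, 8.36 and 6.07 in thoraces and 9.20, 8.05 and 9.003 in heads. Abdomen replicate 1 lay only just above the highest thorax and head libraries. The log2 fold change for ovary was 2.23 against head (SE 0.19, edgeR adjusted p = 1.5e-07), 2.37 against thorax (SE 0.20, adjusted p = 1.2e-07) and 1.59 against abdomen (SE 0.19, adjusted p = 8.4e-06). The inhibitor dap averaged 127 ± 4.86 CPM in ovary, 38.4 ± 10.7 in abdomen, 23.7 ± 3.98 in thorax and 15.5 ± 2.29 in head.

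The 2 Cdc25 phosphatases, which remove the inhibitory phosphate from Cdk1, gave different calls by edgeR between ovary and abdomen. The somatic and embryonic form, stg (string), had 438, 369 and 410.3 CPM in ovaries, 161, 345 and 372 in abdomens, 16.6, 26.4 and 8.76 in thoraces and 16.6, 9.004 and 5.96 in heads. Ovary and abdomen overlapped, and stg was not called between them (log2 0.47, SE 0.40, interval -0.31 to 1.25, edgeR adjusted p = 0.31), although ovary lay 5.27 above head (SE 0.48, adjusted p = 2.5e-07). However, stg was called higher in ovary than in abdomen by RPKM (2.53), where the median of all genes lay at 1.74. The meiotic form, twe (twine), had 96.7, 98.8 and 108 CPM in ovaries, 25.9, 39.1 and 38.8 in abdomens, 2.48, 4.47 and 2.54 in thoraces and 6.17, 4.22 and 4.87 in heads. It was higher in ovary than in abdomen by 1.55 (SE 0.21, edgeR adjusted p = 2.1e-05) and than in head by 4.31 (SE 0.24, adjusted p = 1.4e-09). Whether stg and twe differ in their ovary-to-abdomen change was not tested.

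The 2 activators of the anaphase-promoting complex differed in their tissue profile. The mitotic activator fzy (Cdc20) had 97.8, 96.1 and 100.2 CPM in ovaries, 28.4, 33.2 and 33.6 in abdomens, 2.58, 3.40 and 1.69 in thoraces and 2.71, 2.71 and 0.973 in heads. The activator of G1 and of the endocycle, fzr (Cdh1), had 100.2, 95.8 and 95.8 CPM in ovaries, 38.6, 52.4 and 45.8 in abdomens, 52.3, 48.9 and 45.3 in thoraces and 73.1, 67.7 and 73.3 in heads. Per length, ovary held 52.7 ± 0.782 RPKM of fzy and 37.2 ± 0.813 of fzr, against 0.236 ± 0.123 of fzy and 5.71 ± 1.15 of fzr in head (SD, n = 3). Differences between tissues on that scale include a median log2 fold change of all genes of 1.95 for ovary against head (pseudocount of 0.1). By counts, ovary exceeded head 46.5-fold for fzy (log2 5.54, SE 0.30, edgeR adjusted p = 1.0e-09) and 1.36-fold for fzr (log2 0.45, SE 0.13, adjusted p = 0.0066), and the fzr call against head was lost with DESeq2 (0.16, adjusted p = 0.11). Against abdomen, ovary was higher for both, by 1.63 (SE 0.24, edgeR adjusted p = 4.3e-05) for fzy and 1.09 (SE 0.13, adjusted p = 1.1e-05) for fzr.

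**Figure D3:**
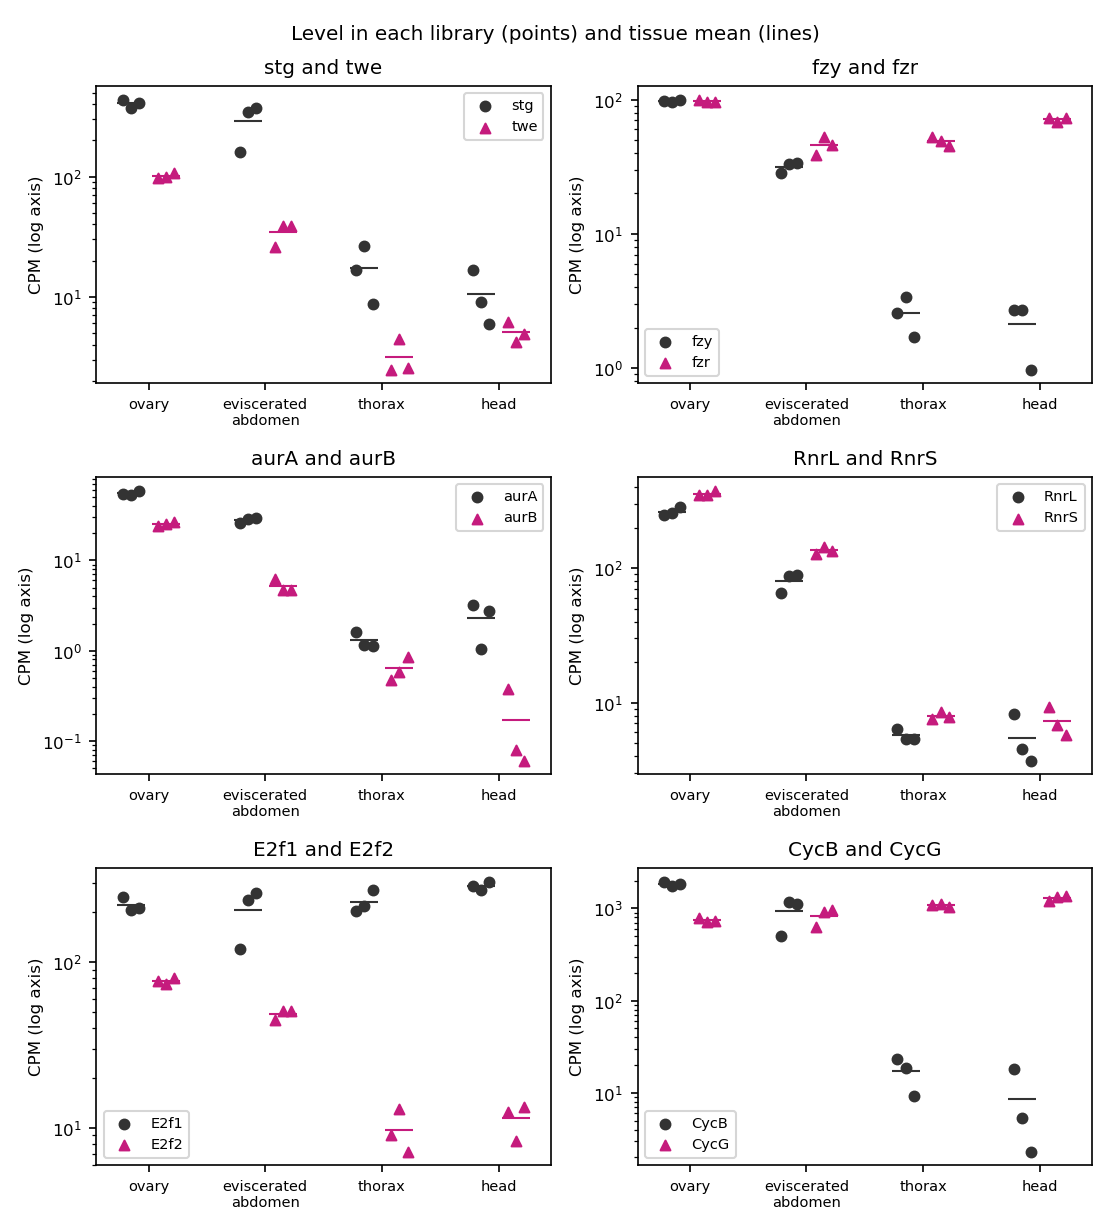
CPM on log axes (y) of 6 gene pairs in ovary, eviscerated abdomen, thorax and head (x); each point is 1 of 3 libraries and each line is the mean of a tissue. E2f1 stays between 120.3 and 306 CPM and fzr between 38.6 and 100.2 CPM in all 12 libraries, whereas CycB lies at 1759 to 1957 CPM in ovaries and 2.31 to 18.1 CPM in heads.

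The 4 genes of mitotic kinases and the spindle checkpoint were called higher in ovary in all 3 comparisons. Aurora A kinase (aurA), which acts at centrosomes, had 54.9, 52.6 and 59.4 CPM in ovaries, 26.0, 28.5 and 29.3 in abdomens, 1.62, 1.17 and 1.13 in thoraces and 3.21, 1.04 and 2.74 in heads. Aurora B kinase (aurB), of the chromosomal passenger complex, had 23.8, 25.0 and 26.9 CPM in ovaries, 6.28, 4.67 and 4.73 in abdomens, 0.478, 0.583 and 0.847 in thoraces and 0.378, 0.0797 and 0.0608 in heads. For both kinases no ovary or abdomen library overlapped a thorax or head library, but aurB passed the filter on low counts only through ovary and abdomen. The log2 fold change for ovary against head was 4.54 for aurA (SE 0.26, edgeR adjusted p = 2.4e-09) and 7.09 for aurB (SE 0.37, adjusted p = 7.4e-10), and against abdomen 1.00 (SE 0.22, adjusted p = 0.0012) and 2.27 (SE 0.25, adjusted p = 3.4e-06). The checkpoint kinase-like protein BubR1 had 96.7, 89.8 and 97.0 CPM in ovaries, 10.3, 28.7 and 25.0 in abdomens, 2.87, 3.89 and 3.67 in thoraces and 8.82, 4.06 and 4.62 in heads. It had the smallest difference from head in this group (log2 4.01, SE 0.36, edgeR adjusted p = 1.9e-07), and its abdomen replicate 1 lay lowest of all 42 genes relative to the other abdomens. Polo kinase (polo), which works at several steps of mitosis, averaged 320.4 ± 13.1 CPM in ovary, 132 ± 47.0 in abdomen, 3.12 ± 0.710 in thorax and 2.95 ± 2.89 in head.

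The pan gu complex (png, plu and gnu), a kinase with 2 partner proteins that acts in the late oocyte and early embryo to control maternal mRNA translation, including that of CycB, had few reads in thorax and head. Its kinase subunit png had 54.9, 54.3 and 60.3 CPM in ovaries, 37.3, 32.4 and 30.9 in abdomens, 0.669, 0.389 and 0.282 in thoraces and 2.46, 0.319 and 0.608 in heads. The partner gnu had 177, 179 and 194 CPM in ovaries, 67.1, 62.5 and 58.3 in abdomens, 1.91, 1.17 and 0.282 in thoraces and 1.89, 0.398 and 0.365 in heads. For both genes the ovary, abdomen and remaining libraries formed 3 ranges that did not overlap, but png passed the filter on low counts only through ovary and abdomen. Ovary exceeded head by 5.59 for png (SE 0.40, edgeR adjusted p = 2.2e-08) and by 7.65 for gnu (SE 0.47, adjusted p = 4.1e-09), and abdomen by 0.75 for png (SE 0.30, adjusted p = 0.040) and 1.55 for gnu (SE 0.33, adjusted p = 0.0010). The png call against abdomen was lost with DESeq2 (0.63, adjusted p = 0.20) and without abdomen replicate 2 or 3, thorax replicate 2 or ovary replicate 3 (estimates from 0.70 to 0.85, adjusted p from 0.051 to 0.10). The third subunit, plu, averaged 23.6 ± 0.709 CPM in ovary, 15.5 ± 2.89 in abdomen, 0.144 ± 0.0494 in thorax and 0.374 ± 0.378 in head, and was not called between ovary and abdomen (log2 0.61, interval 0.05 to 1.17, adjusted p = 0.074). It was called higher in ovary without head replicate 1 or 2 or abdomen replicate 1 (adjusted p from 0.011 to 0.038), with scaling by library size alone (0.92), with only the 2 tissues fitted (0.53) and by RPKM (2.58).

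Eviscerated abdomen was next set against the other 2 body parts. Against head, 39 members were higher in abdomen, CycG and fzr were lower (-0.65 each, not called by RPKM at -0.37 and -0.35) and E2f1 was not called, with 35.8% of all genes called higher and 39.2% lower. Against thorax, 39 were higher, 0 were lower and E2f1, CycG and fzr were not called, with 35.5% and 36.9% of all genes called. At an unadjusted p under 0.05, edgeR had 1 lower there, and DESeq2 called 2. CycG was also called lower in abdomen than in thorax without ovary replicate 1, 2 or 3 (-0.48 each, edgeR adjusted p from 0.021 to 0.023). The median log2 fold change of the members was 3.52 against head and 3.43 against thorax, beside -0.08 over all genes in each case. CycB differed from head by 6.75 (SE 0.69, edgeR adjusted p = 1.3e-06). Orc4 had the smallest called rise among licensing genes, 0.64 against head (SE 0.18, adjusted p = 0.0047), which was lost with only the 2 tissues fitted (0.61). Dp (0.60, SE 0.17, adjusted p = 0.0064) and Cdk4 (0.64, SE 0.20, adjusted p = 0.010) were also among the smallest. Leaving out abdomen replicate 1 gave 39 higher and 2 lower against head and 39 and 0 against thorax. The main counts of 39 include Cdk1, aurB, png and plu, which passed the filter on low counts only through ovary and abdomen.

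As a share of the ovary mean, members in abdomen had a median of 46.9%, from 14.1% (PCNA) to 145% (Cdk2), whereas the medians were 3.16% in thorax and 3.63% in head. These shares depend on the scale. On the authors' RPKM, which divides by a library total that is larger relative to gene counts in abdomen (2.94 to 3.40 times the ratio in ovary replicate 1), thorax (1.30 to 1.89 times) and head (2.73 to 4.77 times), the median share was 12% in abdomen, 1.28% in thorax and 0.718% in head. The order of abdomen above thorax and head held on both scales.

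Transcripts that mark ovarian cells were, summed over each list, also higher in abdomens than in thoraces and heads. Of 15 germline markers and 14 follicle cell and eggshell markers, none was at 0 in all abdomen libraries, and their median abdomen levels were 55.6% and 27.4% of ovary by CPM (14.2% and 7% by RPKM). Summed germline markers reached 1753 to 3873 CPM in abdomens, against 577 to 653 in thoraces and 793 to 900 in heads, and follicle and eggshell markers reached 8549 to 9355 CPM, against 6.64 to 99.7 in thoraces and 6.20 to 20.2 in heads. Not all germline markers were confined to ovary and abdomen. Of the 15, 12 were higher and 2 lower in ovary than in head, and 13 and 1 than in thorax. One of them, stau, averaged 417 CPM in head and 229 in thorax, against 177 in ovary. Over abdomen replicates 1, 2 and 3 the follicle and eggshell sum was 8549, 9355 and 8587 CPM, and that of the 42 genes 3217, 5343 and 5195. Abdomen replicate 1 also differed with gene length, as given below. Per abdomen library, the median share of ovary for replicates 1, 2 and 3 was 35.0%, 51.5% and 46.3% for the 42 genes, 30.7%, 64.6% and 58.0% for germline markers and 22.7%, 34.4% and 29.3% for follicle and eggshell markers. In heads it was 5.17%, 2.91% and 2.20% for the 42 genes and 6.44%, 2.71% and 1.02% for germline markers, and 34 members were highest in head replicate 1. A list of 7 gut genes, which includes the stem cell gene esg, summed to 487 to 1522 CPM in abdomens, 24806 to 38028 in thoraces and 120 to 139 in heads. The part of these cell types in the levels of the 42 genes was not tested.

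Abdomen replicate 1 differed from its replicates in a way that ran with gene length. Its counts differed from those of abdomen replicates 2 and 3 by a chi-square per degree of freedom of 117 and 87.9, whereas the other pairs of replicates of a tissue gave 4.66 to 47.7. It lay below both other abdomens for 34 of the 42 genes and above both for 7, namely Orc5, Orc6, Cdk1, aurB, png, plu and gnu. The ratio of replicate 1 to the mean of replicates 2 and 3 had a median of 0.711 over the members and 0.982 over all genes tested, from 0.383 (BubR1) to 1.36 (plu). Over all genes, split by length of the gene model, the median ratio was 1.39 in the shortest of 6 equal classes and 0.615 in the longest. The members followed the same course, with a Spearman rho of -0.78 between length and ratio over the 42 genes, which share these 3 libraries. All 7 members that lay above had gene models shorter than the median gene, and in the 21 longer members no ratio exceeded 1 (median 0.608). The part of this in the ovary-abdomen comparisons was not tested, but without abdomen replicate 1 the counts for ovary against abdomen were 34 higher and 2 lower.

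**Figure D4:**
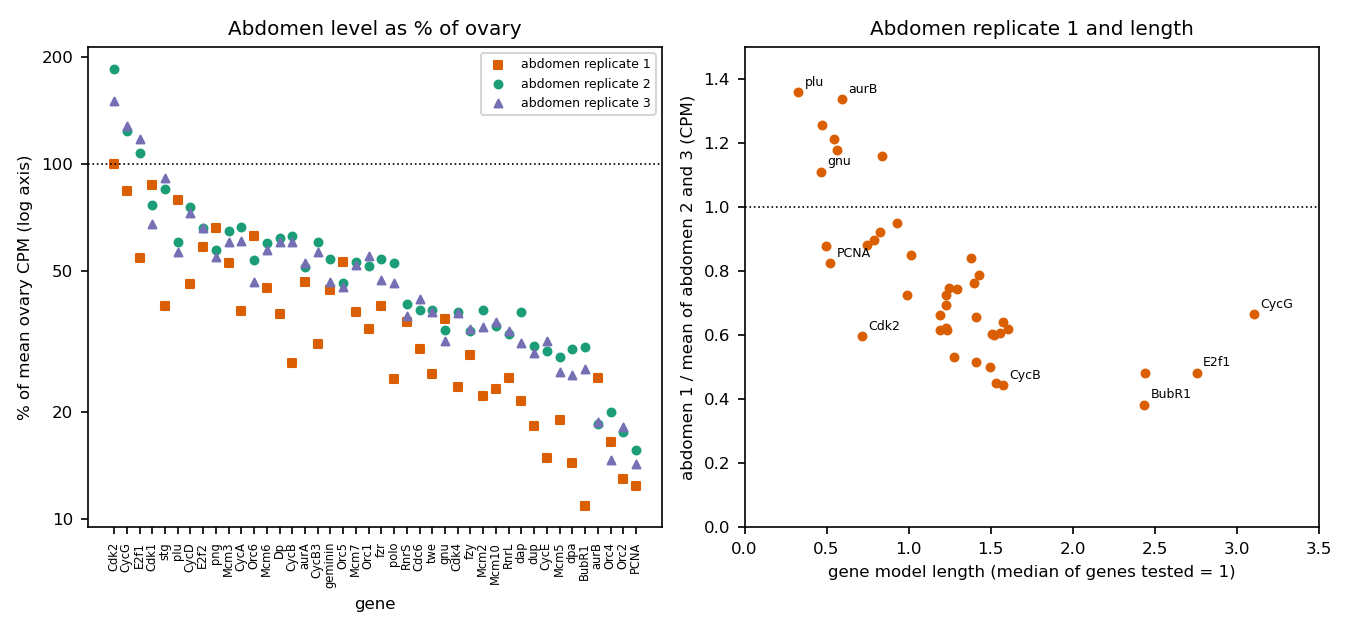
Left, CPM of each abdomen library as a percentage of the mean ovary CPM (log axis) for the 42 genes, ordered by the mean share; the dotted line marks 100%. Right, ratio of abdomen replicate 1 to the mean of replicates 2 and 3 against the length of the gene model relative to the median gene tested; the ratio is highest for short genes (plu, 1.36) and lowest for long ones (BubR1, 0.383).

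Few of these genes were called between thorax and head. Members had a median of only 37 counts per library in thoraces and 66.5 in heads, so a gene that was not called may still differ. Of the 42 genes, 4 were higher in thorax (Cdc6, PCNA, dap and aurB), 3 were lower (Orc1, Orc4 and fzr) and 35 were not called, whereas 16.5% of all genes were called higher and 25.4% lower. The median log2 fold change of the members was -0.08, beside -0.17 over all genes. Cdc6 was higher in thorax, with 10.0, 13.0 and 10.9 CPM in thoraces, against 6.17, 2.23 and 2.25 in heads (log2 1.66, SE 0.32, edgeR adjusted p = 0.00098), and it was the one call that held under every alternative tried. The other log2 fold changes of genes higher in thorax were 1.75 for aurB (SE 0.56, adjusted p = 0.023), 0.61 for dap (SE 0.21, adjusted p = 0.029) and 0.49 for PCNA (SE 0.18, adjusted p = 0.0497). On the lower side stood Orc1 (-1.09, SE 0.36, adjusted p = 0.029), Orc4 (-0.58, SE 0.19, adjusted p = 0.028) and fzr (-0.55, SE 0.13, adjusted p = 0.0054). By RPKM Orc4 was 0.35 and fzr 0.41, on a scale where the median of all genes lay at 0.73. For aurB the thoraces held 5, 6 and 6 counts and the heads 6, 1 and 1, and it had too few to be tested when only these 2 tissues were fitted. Each of these 6 calls was lost when some single libraries were left out. For aurB these were head replicates 2 and 3 and thorax replicate 3 (1.33 to 1.56), and for dap head replicates 2 and 3 and thorax replicate 2 (0.49 to 0.58). The fzr call was lost without any ovary replicate (-0.32 each) and the PCNA call without any head or thorax replicate (0.42 to 0.56). For Orc1 all head, thorax and ovary libraries but head replicate 3 and thorax replicate 2 had this effect (-1.12 to -0.68), and for Orc4 all of these but head replicate 2 (-0.59 to -0.35). Other settings also ended calls, as only the 2 tissues did for PCNA, Orc1 and Orc4, the replicate block for PCNA (0.50) and Orc4 (-0.58), scaling by library size alone for PCNA and dap, and DESeq2 for PCNA. Without head replicate 1, 10 members were called higher in thorax and 1 lower.

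Levels of different genes were compared per length, again on the authors' RPKM. In ovary CycB came first with 639 ± 25.7 RPKM (SD, n = 3), followed by CycA with 294 ± 6.36, RnrS with 237 ± 10.1, PCNA with 221 ± 9.67 and gnu with 216 ± 10.4. The ranges of RnrS, PCNA and gnu overlapped, while CycB and CycA stood clear of their neighbours. At the other end were Orc2 (20.2 ± 1.94), Orc6 (19.7 ± 1.34), Cdk4 (18.2 ± 0.808) and Orc5 (17.7 ± 0.868), with each overlapping its neighbour in this order. In abdomen CycB (82.6 ± 34.6) and CycA (41.6 ± 12.1) again came first, followed by CycG (37.6 ± 9.88). In thorax and head the order changed. CycG led with 76.8 ± 10.8 RPKM in thorax and 48.7 ± 13.4 in head, E2f1 followed with 18.3 ± 0.530 and 11.95 ± 2.61, and CycB stood 10th in thorax (2.48 ± 1.25) and 14th in head (0.541 ± 0.407).

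Other genes of the same pathways were counted from lists made by function. Of 32 further replication genes (polymerases, GINS, RPA, clamp loader and others), 28 were higher and 1 lower in ovary against head, 31 and 1 against thorax, and 27 and 2 against abdomen. Over all genes tested, 39.4% were higher and 46.4% lower in ovary against head, 40.3% and 43.7% against thorax, and 32.6% and 35.9% against abdomen. Among the 32 genes, the largest difference from head was that of dUTPase, which keeps uracil out of DNA (log2 5.40, SE 0.29, edgeR adjusted p = 1.0e-09). Psf3, a GINS subunit, was lower in ovary than in head (-2.20, SE 0.17, adjusted p = 5.2e-08), thorax (-1.72) and abdomen (-2.89). By RPKM its difference from head was 0.08, on a scale where the median of all genes lay at 1.95. The other gene lower in ovary than in abdomen, named after its value was seen, was Psf2, also of GINS (-1.13, SE 0.22, adjusted p = 0.00058). By RPKM Psf2 was 0.89, where the median of all genes lay at 1.74. Of 28 further cyclin, CDK and inhibitor genes, which include those of transcription, 25 were higher and 0 lower in ovary against head, 26 and 0 against thorax, and 24 and 1 against abdomen. The gene lower than in abdomen, named after its value was seen, was trbl, which promotes breakdown of stg protein (-0.34, SE 0.13, adjusted p = 0.031). By RPKM trbl was 1.62, where the median of all genes lay at 1.74. The largest difference from head was that of lok, the fly Chk2 kinase (5.57, SE 0.24, adjusted p = 1.6e-10). DESeq2 called 2 and 1 of these 28 lower in ovary against head and thorax, and edgeR had 0 in either at an unadjusted p under 0.05. Of 46 further mitosis and anaphase-promoting complex genes, 45 were higher and 0 lower against head, 46 and 0 against thorax, and 32 and 1 against abdomen. The count lower against head and thorax was 0 also by DESeq2, and by edgeR at an unadjusted p under 0.05. The largest of these against head was pim, the fly securin (6.74, SE 0.40, adjusted p = 2.7e-09). The gene lower in ovary than in abdomen was mad2, of the spindle checkpoint (-0.51, SE 0.19, adjusted p = 0.033). By RPKM mad2 was 1.47, on a scale where the median of all genes lay at 1.74. The mad2 call by counts was lost without abdomen replicate 2 or any ovary replicate (-0.48 to -0.30) and with scaling by library size alone (-0.20). For abdomen against head the counts were 29 higher and 0 lower, 16 and 2, and 38 and 1 for the 3 lists. Of all genes, 35.8% were higher and 39.2% lower there. For thorax against head the counts were 2 and 5, 1 and 5, and 0 and 7 in the same order, beside 16.5% and 25.4% of all genes. Where these counts are 0, edgeR had 0 also at an unadjusted p under 0.05, and DESeq2 called 2 replication genes lower in abdomen than in head and 0 mitosis genes higher in thorax than in head.

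On the current annotation, 21 of the 42 genes overlap another gene, and whether counting used the strand is not stated, so reads of either gene could have entered these counts. Among the genes described above these are Orc1 (PIG-G), Orc2 (rdx), Orc4 (an antisense RNA), Orc5 (GatC and PolG2), Orc6 (Sting), Cdc6 (Zasp66), dup (SRPK), Mcm3 (CG3309), Mcm7 (an antisense RNA), Mcm10 (Ret), E2f1 (noncoding RNAs), E2f2 (Mpp6), Dp (Fsn), CycA (CG7264), CycE (noncoding RNAs), CycG (Med), Cdk2 (CG17267), Cdk4 (an antisense RNA), twe (EndoGI), fzy (cact) and aurA (CG12213). The other 21, CycB, Cdk1, PCNA, stg and fzr among them, have no such neighbour there.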

How the data were processed

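Total RNA was depleted of ribosomal RNA and sequenced from 12 pools of wild-type flies, 3 each of ovary, eviscerated abdomen, thorax and head. Per the labels and the study's methods, the authors aligned reads to the dm3 genome with TopHat (TopHat2 2.0.10 and CASAVA 1.8 in the submitters' processing notes) and deposited raw gene counts made with easyRNASeq, and the authors also deposited RPKM values made with the same package. Strand use is not stated. Totals of 7884586 to 32498809 counts set the precision. Each SE from edgeR was the size of the log2 fold change over the square root of the test's F statistic. Intervals used a normal multiplier on that SE, which makes them somewhat narrow for so few libraries. They rest on a spread estimated in a joint fit of all 12 libraries, so they do not measure the spread of a single tissue's 3 libraries. They cover the spread between libraries only, and the libraries come from separate pools with no further label of their origin.

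Counts were tested with edgeR 4.0.16 (R 4.3.3) as a quasi-likelihood fit of tissue over all 12 libraries, with trimmed-mean (TMM) factors of 0.768 to 1.32, the default filter on low counts (11188 of 13898 genes tested), a prior count of 0.125 and Benjamini-Hochberg adjustment over all tested genes, called at an adjusted p under 0.05. The study's methods name a batch correction without naming the batches, so no batch term was fitted. The fit was tested on simulated data. The 21 alternatives were no filter on low counts or at least 1 CPM in 3 libraries, upper quartile factors, scaling by library size alone, DESeq2 1.42.0, a fit of only the compared tissues, the replicate number as a block, limma 3.58.1 on log2(RPKM + 0.1) or log2(RPKM + 1), and each library left out. In each role group the genes with the largest and smallest difference between ovary and head, genes lower in ovary, and 5 named pairs are given in full. The members and lists were chosen with earlier results of these data known. Tables of repeats, and the fat body and small RNA samples, were not used here. Sequences and coordinates on dm3 are not given.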

Additional observations from a re-analysis of the deposited data

How the results depend on the processing

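All values here are log2 fold changes or counts of the 42 genes. Across the alternatives, 39 genes stayed called higher in ovary than in head, 40 than in thorax and 31 than in abdomen, 38 in abdomen than in head and 34 than in thorax, and 1 (Cdc6) in thorax than in head. The largest shifts came with RPKM, where the median of all genes moved to 1.95 for ovary against head, 1.74 against abdomen and 0.73 for thorax against head with a pseudocount of 0.1. The cause of the changes below was not tested.

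For ovary against head, 2 genes were lower with DESeq2 and 0 with library size alone or RPKM, and the median was 5.27 with library size alone and 6.68 and 5.16 with RPKM (pseudocounts of 0.1 and 1, in this order throughout). E2f1 was 0.13 with library size alone and 1.88 and 1.80 with RPKM, CycG 1.46 and 1.44, and Psf3 0.078 and 0.073. For ovary against thorax, 0 were lower with library size alone or RPKM, and the median was 4.65 with DESeq2, 5.67 with library size alone and 6.13 with RPKM + 0.1. E2f1 was 0.62 with library size alone and 1.25 and 1.21 with RPKM, and CycG 0.16, 0.78 and 0.77. For ovary against abdomen, 2 were lower with DESeq2 and with upper quartile factors and 0 with library size alone or RPKM, and the median was 1.38 with library size alone, 0.88 with upper quartile factors and 3.06 and 2.96 with RPKM. E2f1 was -0.0079 with DESeq2 and -0.095 with upper quartile factors, CycG 0.13 with library size alone and 1.83 and 1.80 with RPKM, Cdk2 1.47 and 1.44, and mad2 1.47 and 1.43.

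For abdomen against head, 3 were lower with DESeq2 (E2f1, CycG and fzr) and 0 with RPKM, and the median was 2.05 with RPKM + 1. For abdomen against thorax, 2 were lower with DESeq2, 1 with upper quartile factors and 3 with either RPKM, and the median was 3.84 with library size alone and 2.62 and 1.72 with RPKM. Library size alone gave 0.23 for E2f1, 0.031 for CycG and 0.30 for fzr there. For thorax against head, 2 were higher with library size alone and 28 and 15 with RPKM, and 5 were lower with DESeq2, 7 with library size alone, 1 with upper quartile factors or only the compared tissues and 0 with RPKM. The median there was 0.77 and 0.36 with RPKM, with Orc4 at 0.35 and 0.15 and fzr at 0.41 and 0.36.

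With 1 library left out at a time, genes lower in ovary numbered 1 to 2 against head, 0 to 1 against thorax and 0 to 2 against abdomen, genes lower in abdomen than in thorax 0 to 1, and genes higher and lower in thorax than in head 1 to 10 and 0 to 6. Medians ranged from 4.63 to 5.17 for ovary against head, 4.85 to 5.36 against thorax, 1.01 to 1.31 against abdomen and 3.32 to 3.69 for abdomen against thorax. E2f1 ranged from -0.097 to 0.078 for ovary against thorax, -0.16 to 0.34 for ovary against abdomen and -0.30 to 0.12 for abdomen against thorax, CycG from -0.33 to 0.047 for ovary against abdomen, and fzr from -0.21 to 0.023 for abdomen against thorax.

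Deviations from the tissue means had correlations of -0.181 to 0.131 over 18 pairs of libraries of the same number. Over 36 pairs of other numbers they were -0.204 to 0.229, and 3 pairs of each kind exceeded 0.1. These ranges overlap, so the check cannot settle whether the numbers mark libraries made together. With the replicate number as a block, higher and lower counts were 40 and 1 for ovary against head, 40 and 1 against thorax, 33 and 1 against abdomen, 39 and 2 for abdomen against head, 39 and 0 against thorax and 3 and 2 for thorax against head, and the call of mad2 for ovary against abdomen (adjusted p = 0.055) and those of PCNA (0.50) and Orc4 (-0.58) for thorax against head were lost. Low counts limit the thorax and head levels of Cdk1, aurB, png and plu.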
